A study of Mus musculus with 114 samples.

Results

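The comparison is that of the high fat diet (HFD) with chow diet (CD) after 34 weeks of feeding, in adipocytes of the perigonadal fat of male C57BL/6J mice. It holds 14 of the 38 mice of the RNA-seq series, chosen by diet and time alone, with 8 CD and 6 HFD mice. All of these mice started their diet at 6 weeks of age and were fasted for 6 hours before the tissue was taken, and the labels name no transgene and no drug. In the HFD most calories come from fat, and the control diet was fed in either of 2 formulas, which are not separated in the labels. Collagenase was used to free the adipocytes, which were collected as the floating layer, so the RNA is that of a fraction prepared by density and not of sorted cells. Each mouse carries 3 sequenced replicates of the same RNA, which the authors had merged into 1 value per gene. The reads on genes ranged from 9275711 to 12433584 in CD mice, against 10714545 to 12271651 in HFD mice, and 1 read equals 0.0804 to 0.108 CPM, the counts of a gene scaled to a library of 1000000 reads. Mice are the replicates throughout.

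White adipocytes store triglyceride in a single droplet, take up glucose and fatty acids under insulin, make new fatty acids from glucose and release fatty acids when catecholamines act on their adrenergic receptors. They also secrete hormones such as leptin, adiponectin and adipsin. In obese perigonadal fat of male mice, macrophages gather around dying adipocytes in crown-like structures, take up their lipid and carry surface genes such as Itgax and Trem2. Debris-laden macrophages can stay attached to fat cells during digestion, and in bulk RNA fewer cells of a type and less RNA per cell cannot be told apart.

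The 14 mice differed most along 1 axis, the first principal component of the log2(CPM + 1) values of 10461 genes, which held 63.1% of the variance. HFD mice lay between 1.43 and 63.8 on it and CD mice between -80.9 and 32.8. The difference of the diet means was 63.0 (exact permutation test over 3003 splits, two-sided p = 0.00466, where the smallest p that can be reached is 0.000333). On the second component, with 12.1% of the variance, the diets did not separate (exact permutation p = 0.762). Marker genes also differed between the mice at the ends of this axis. The mean of 20 core macrophage markers, on the log2(CPM + 1) scale, was 5.21 to 8.54 in CD mice, against 7.44 to 8.97 in HFD mice. The mean of 23 adipocyte markers ran the other way, from 9.79 to 10.8 in CD mice, against 9.18 to 10.1 in HFD mice.

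**Figure D1:**
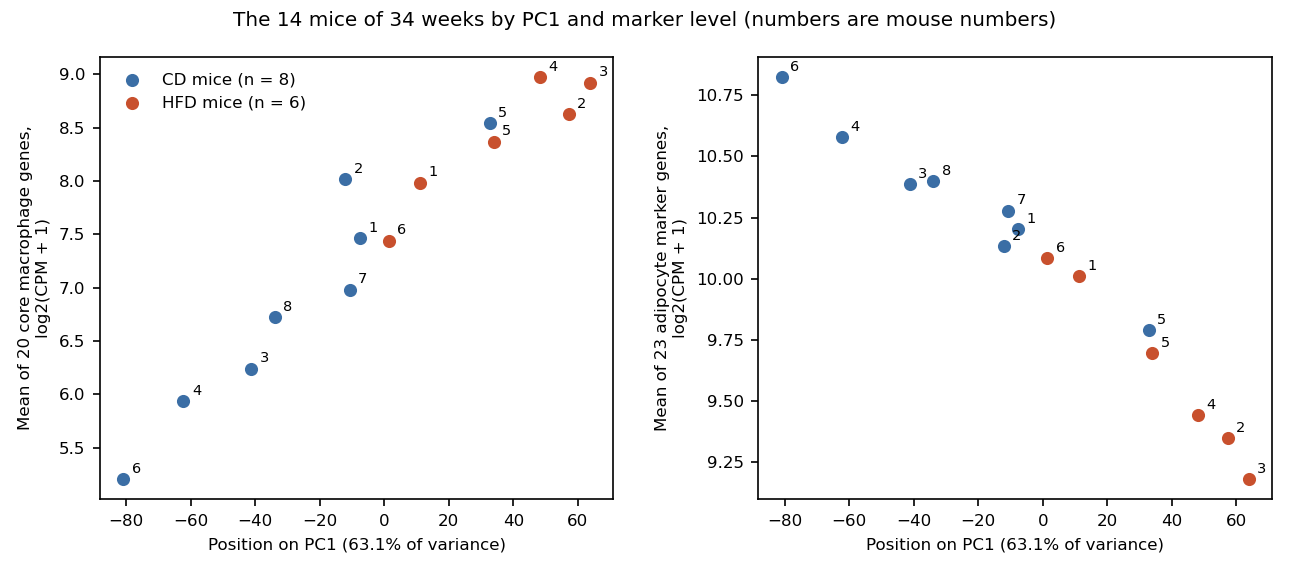
Position of each of the 14 mice on the first principal component (x axis, arbitrary units) against the mean log2(CPM + 1) of 20 core macrophage genes (left) or 23 adipocyte marker genes (right), with CD mice in blue and HFD mice in red. CD mouse 5 sits at 32.8 on the axis, among the HFD mice, with the highest macrophage mean (8.54) and the lowest adipocyte mean (9.79) of the CD mice, and CD mouse 6 sits at the other end, at -80.9.

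CD mouse 5 thus stood among the HFD mice in both marker sets, while CD mice 4 and 6 stood farthest from them. The CD mice varied more than at the earlier times. The median over genes of the SD between mice was 0.312 in CD and 0.287 in HFD mice at 34 weeks on the log2 scale, compared with 0.207 and 0.158 at 20 weeks and 0.173 and 0.194 at 8 weeks. An SD above 1 was found for 678 genes (6.48%) in CD mice and for 61 genes in HFD mice, and the SD was larger in CD than in HFD mice for 63.5% of the genes.

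A diet difference passed the test (limma, Benjamini-Hochberg adjusted p under 0.05) in 2559 of 10461 genes (24.5%), with 1797 higher (17.2%) and 762 lower (7.28%) in HFD mice. A further rule of at least a 2-fold difference left 812 higher and 121 lower genes. The median log2 fold change over all genes tested was 0.08, and rescaling the CPM with TMM factors moved it to -0.03. With that rescaling 1399 genes were higher and 1050 lower, and with edgeR on the whole reads 1190 were higher and 1053 lower, so that the share of higher genes among the calls fell from 70.2% to 57.1% and 53.1%. In 156 genes (1.49%) every HFD mouse was above every CD mouse, and in 102 genes (0.975%) every HFD mouse was below every CD mouse. Of these, 155 and 102 also passed the test. With TMM factors the genes without overlap were 107 higher and 135 lower, and with median-of-ratios factors 107 and 141. Leaving out CD mouse 5 raised the calls to 3617 and these genes to 708 and 237. Leaving out HFD mouse 3 lowered the calls to 1056, and without HFD mouse 2, HFD mouse 4, HFD mouse 5, CD mouse 3 or CD mouse 4 they were 1166, 1373, 1599, 1705 and 1672.

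The largest rises without overlap of the diets were in Itgax, Mmp12, Nes, Itgad, Mamdc2, Serpinb9b, Dcstamp, Uchl1, Stac2 and Arhgap25, with log2 fold changes between 2.48 and 4.08. Several of them are genes of myeloid cells. Itgax and Itgad encode integrin alpha chains of leukocytes, Mmp12 is the macrophage elastase, Dcstamp is needed for the fusion of macrophages and osteoclasts, and Arhgap25 is a Rac regulator of blood cells. Itgax (chromosome 7, 128129526 to 128150657, GRCm38) lay between 4.32 and 80.7 CPM in CD mice, with a median of 27.3, and between 228 and 819 in HFD mice, with a median of 503. The diets did not overlap, and CD mouse 5 held the highest CD value. Mmp12 (chromosome 9, 7344397 to 7360461) was at 20.1 to 292 CPM in CD mice (median 83.1) and at 677 to 2529 in HFD mice (median 1341), a log2 fold change of 3.88 (SE 0.589, adjusted p = 0.00273). Dcstamp rose from a CD median of 1.18 CPM, in a range of 0.831 to 7.27, to an HFD median of 24.9, in a range of 9.24 to 41.3 (log2 fold change 2.79, SE 0.431, adjusted p = 0.00287).

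The other large rises were in Nes, Uchl1, Stac2, Mamdc2 and Serpinb9b, and which cells expressed them here was not tested. Nes, the intermediate filament protein nestin of neural and other progenitors and of new vessels, was at 1.44 to 22.8 CPM in CD mice (median 3.42) and at 30.9 to 159 in HFD mice (median 86.4), a log2 fold change of 3.76 (SE 0.523, adjusted p = 0.00252). Uchl1, a deubiquitinating enzyme abundant in neurons, was at 0.339 to 3.25 CPM in CD mice (median 0.867) and at 5.69 to 20.7 in HFD mice (median 11.3), and its log2 fold change was 2.57 (SE 0.319, adjusted p = 0.00165). Uchl1 was low in every CD mouse. For Nes the value of 22.8 CPM was that of CD mouse 5, and the other CD mice were at or below 6.65. Stac2, an adaptor of voltage-gated calcium channels, had a CD median of 2.83 CPM and an HFD median of 23.3. Mamdc2, a proteoglycan of the extracellular matrix, had medians of 3.67 and 48.0 CPM. Serpinb9b, an inhibitor of granzymes that belongs to a family of near-identical copies whose reads could be shared, had medians of 1.08 and 15.4 CPM.

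The largest falls without overlap were in Agt, Adrb3, Cfd, Cyp2e1, Enpep, Gpx3, Sbsn, Pth1r, Slc43a1 and Clu, with log2 fold changes from -3.47 to -1.93. Most encode secreted proteins or cell surface receptors and carriers. Agt, angiotensinogen (chromosome 8, 124556587 to 124569706), was at 90.9 to 439 CPM in CD mice (median 201) and at 10.1 to 37.2 in HFD mice (median 18.1). Adrb3, the beta-3 adrenergic receptor through which catecholamines start lipolysis (chromosome 8, 27225776 to 27230845), was at 216 to 971 CPM in CD mice (median 440) and at 44.7 to 107 in HFD mice (median 68). Within the CD group the lowest Agt value was again that of CD mouse 5.

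Cfd, the complement factor adipsin secreted by adipocytes, was at 2680 to 16864 CPM in CD mice (median 5375) and at 499 to 1530 in HFD mice (median 832), a log2 fold change of -2.70 (SE 0.404, adjusted p = 0.00263). Cyp2e1, a cytochrome P450 that oxidises ethanol and ketone bodies, fell by 2.52 (SE 0.495, adjusted p = 0.00839). The secreted glutathione peroxidase Gpx3 fell from a median of 474 to 101 CPM, and the secreted chaperone clusterin (Clu) fell from 190 to 40.0. Enpep, the aminopeptidase that cuts angiotensin II, fell by 2.23 on the log2 scale (SE 0.339, adjusted p = 0.00273). The parathyroid hormone receptor Pth1r, with a CD median of 21.9 CPM, was at 2.98 to 5.62 in HFD mice. The carrier of large neutral amino acids Slc43a1 was at 32.9 to 58.9 CPM in CD mice, against 6.25 to 17.5 in HFD mice, a log2 fold change of -1.98 (SE 0.201, adjusted p = 0.000255). Sbsn, suprabasin, was at 56.7 to 105 CPM in CD mice and at 10.1 to 33.0 in HFD mice (log2 fold change -2.14, SE 0.236, adjusted p = 0.000534). All 20 of these genes kept their call when any single mouse was left out.

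**Figure D2:**
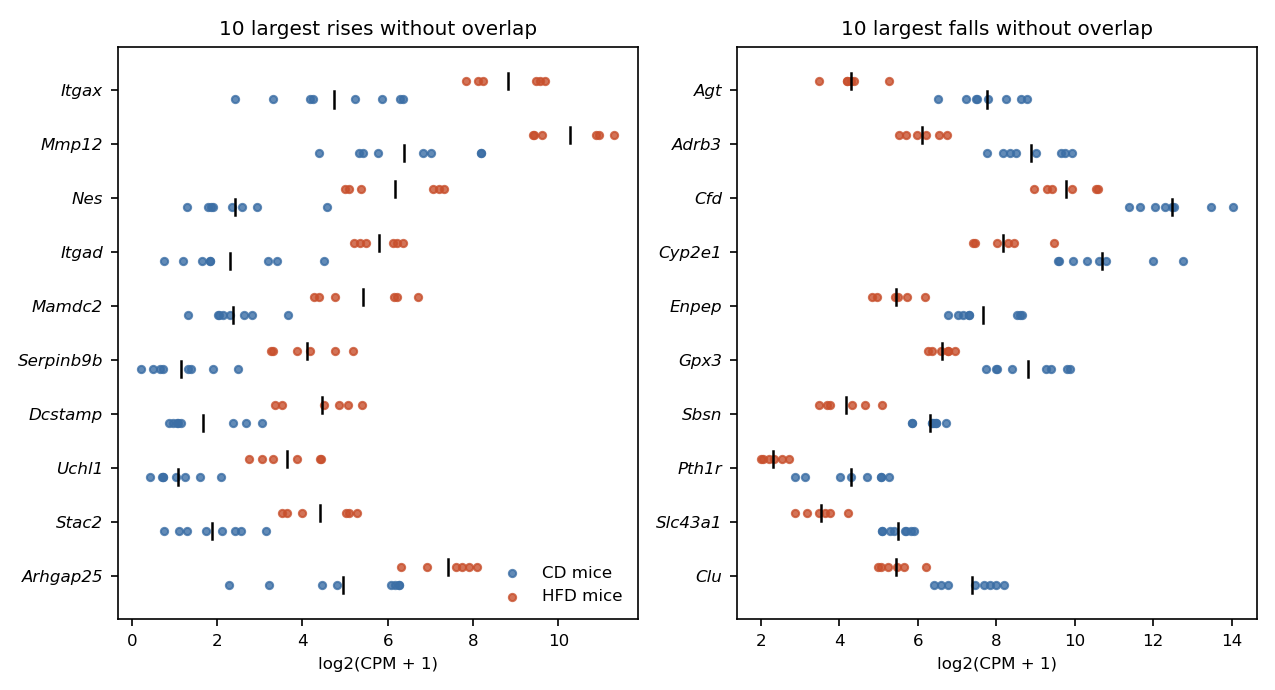
Values of single mice on the log2(CPM + 1) scale (x axis) for the 10 largest rises (left) and the 10 largest falls (right) among genes in which the diets do not overlap, with CD mice in blue, HFD mice in red and a black bar at each mean. The gap is widest for Itgax, whose mean log2 values differ by 4.08, and for Agt, whose mean log2 values differ by -3.47.

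The list counts from here on stand beside 17.2% higher and 7.28% lower genes among all genes tested. Genes that define the adipocyte were lower in part. Of 15 adipokines and other secreted factors, among them Agt and Cfd, 5 were lower and 1 higher (median -0.30). Of 23 adipocyte markers, 11 were lower and 1 higher, with a median log2 fold change of -0.61 compared with 0.08 for all genes. Without CD mouse 5 these counts were 14 and 1. The exception was the fatty acid carrier Cd36, which macrophages also express. It was at 3070 to 5465 CPM in CD mice (median 3838) and at 5311 to 7401 in HFD mice (median 6059), a log2 fold change of 0.62 (SE 0.161, adjusted p = 0.0182). Pck1, the enzyme of glyceroneogenesis, fell from a median of 1829 to 718 CPM without overlap (log2 fold change -1.45, SE 0.26, adjusted p = 0.00551). Adiponectin (Adipoq) had a median of 5011 CPM in CD and 2998 in HFD mice, with 4 HFD mice below every CD mouse, and its difference of -0.57 (SE 0.241) did not pass the test (adjusted p = 0.0916). Leptin (Lep) had overlapping ranges of 591 to 3833 CPM in CD and 1136 to 3733 in HFD mice (adjusted p = 0.356).

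Of 23 adipocyte transcription factors, 10 were lower and none was higher, with a median of -0.49. Mlxipl, the carbohydrate response element binding protein ChREBP that turns on lipogenic genes when glucose is plentiful, fell from a median of 58.2 to 25.9 CPM without overlap (log2 fold change -1.21, SE 0.177, adjusted p = 0.00252). Klf15, a factor of late adipocyte differentiation and of amino acid use, fell by 1.22 (SE 0.284, adjusted p = 0.0135), with 5 HFD mice below every CD mouse. The main regulators of fat cell differentiation, Pparg and Cebpa, passed the test by little. Pparg was at 240 to 478 CPM in CD and 172 to 311 in HFD mice, with a difference of -0.54 on the log2 scale (adjusted p = 0.0462). Cebpa was at 530 to 1340 and 388 to 608, with a log2 difference of -0.61 (adjusted p = 0.0364). The droplet coat protein Plin1 fell by 0.62 (adjusted p = 0.0445) and the hormone-sensitive lipase Lipe by 0.70 (adjusted p = 0.0346). The calls of these 4 genes rested on single mice. Over the 14 fits that left out 1 mouse, the adjusted p was 0.0164 to 0.102 for Pparg, 0.0152 to 0.0919 for Cebpa, 0.0216 to 0.112 for Plin1 and 0.0123 to 0.0913 for Lipe. All 4 lost their call without CD mouse 3, CD mouse 4, CD mouse 8, HFD mouse 2, HFD mouse 3, HFD mouse 4 or HFD mouse 5. Pparg, Plin1 and Lipe also lost it without CD mouse 6, Pparg without HFD mouse 1, and Plin1 without CD mouse 1 or CD mouse 7.

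De novo lipogenesis had the lowest median of the lists with all mice and no covariate or weights. With mouse weights acute phase proteins were lower (-1.06 against -0.99). With the macrophage covariate lipogenesis (-0.29) lay above several lists, with resident macrophage markers lowest (-0.75) and acute phase proteins next (-0.68). Of 21 genes of de novo lipogenesis, 12 were lower and 1 higher, with a median log2 fold change of -1.21, and the mean of the list was 7.72 to 9.75 in CD mice, against 7.35 to 8.15 in HFD mice. Fasn, the fatty acid synthase, spanned 975 to 18022 CPM in CD mice (median 5280) and 668 to 2152 in HFD mice (median 1232), a log2 fold change of -2.24 (SE 0.584, adjusted p = 0.0182). The lowest CD value belonged to CD mouse 5 and lay within the HFD range. Scd1, which desaturates the product, had medians of 49548 and 12775 CPM (log2 fold change -1.75, SE 0.346, adjusted p = 0.00855). Acacb, the acetyl-CoA carboxylase at the mitochondrial membrane, had medians of 130 and 40.6 CPM (log2 fold change -1.81, SE 0.358, adjusted p = 0.00855). The 1 higher gene, Elovl1, elongates very long saturated chains. It rose by 0.47 on the log2 scale (adjusted p = 0.0279, and 0.0108 to 0.0677 with single mice left out) and was not called without CD mouse 4, HFD mouse 2, HFD mouse 3, HFD mouse 4 or HFD mouse 5.

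Of 16 genes of triglyceride synthesis and glyceroneogenesis, 4 were lower and 3 higher (median -0.52). Without CD mouse 5 the lower genes were 9, and with edgeR 6 were lower and none higher. Dgat1, which adds the last acyl chain of triglyceride, fell from 291 to 593 CPM in CD mice to 136 to 274 in HFD mice without overlap (log2 fold change -1.04, SE 0.199, adjusted p = 0.0077). Of 26 genes of lipolysis and the droplet coat, 5 were lower and 1 higher, with a median of -0.26. The adipose triglyceride lipase Pnpla2 was not among them (log2 fold change -0.58, adjusted p = 0.0712).

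Of 39 genes of insulin signalling and glucose uptake 11 were lower and 7 higher, with a median of -0.14, where the higher genes were about as frequent as among all genes (17.2%). Slc2a4, the insulin-regulated glucose carrier GLUT4, was at 151 to 360 CPM in CD mice (median 203) and at 97.2 to 187 in HFD mice (median 116), a log2 fold change of -0.86 (SE 0.218, adjusted p = 0.0167). Irs1, the first docking protein of the insulin receptor, had medians of 42.3 and 20.7 CPM (log2 fold change -0.93, SE 0.194, adjusted p = 0.0101). Grb10, an adaptor that dampens insulin receptor signals, also fell, from 37.2 to 70.4 CPM in CD mice to 13.4 to 37.2 in HFD mice (log2 fold change -1.21, SE 0.186, adjusted p = 0.00286). Among the higher genes was hexokinase 1 (Hk1), found in most cells, which was at 11.1 to 29.1 CPM in CD mice and at 32.5 to 64.6 in HFD mice (log2 fold change 1.13, SE 0.241, adjusted p = 0.0104).

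**Figure D3:**
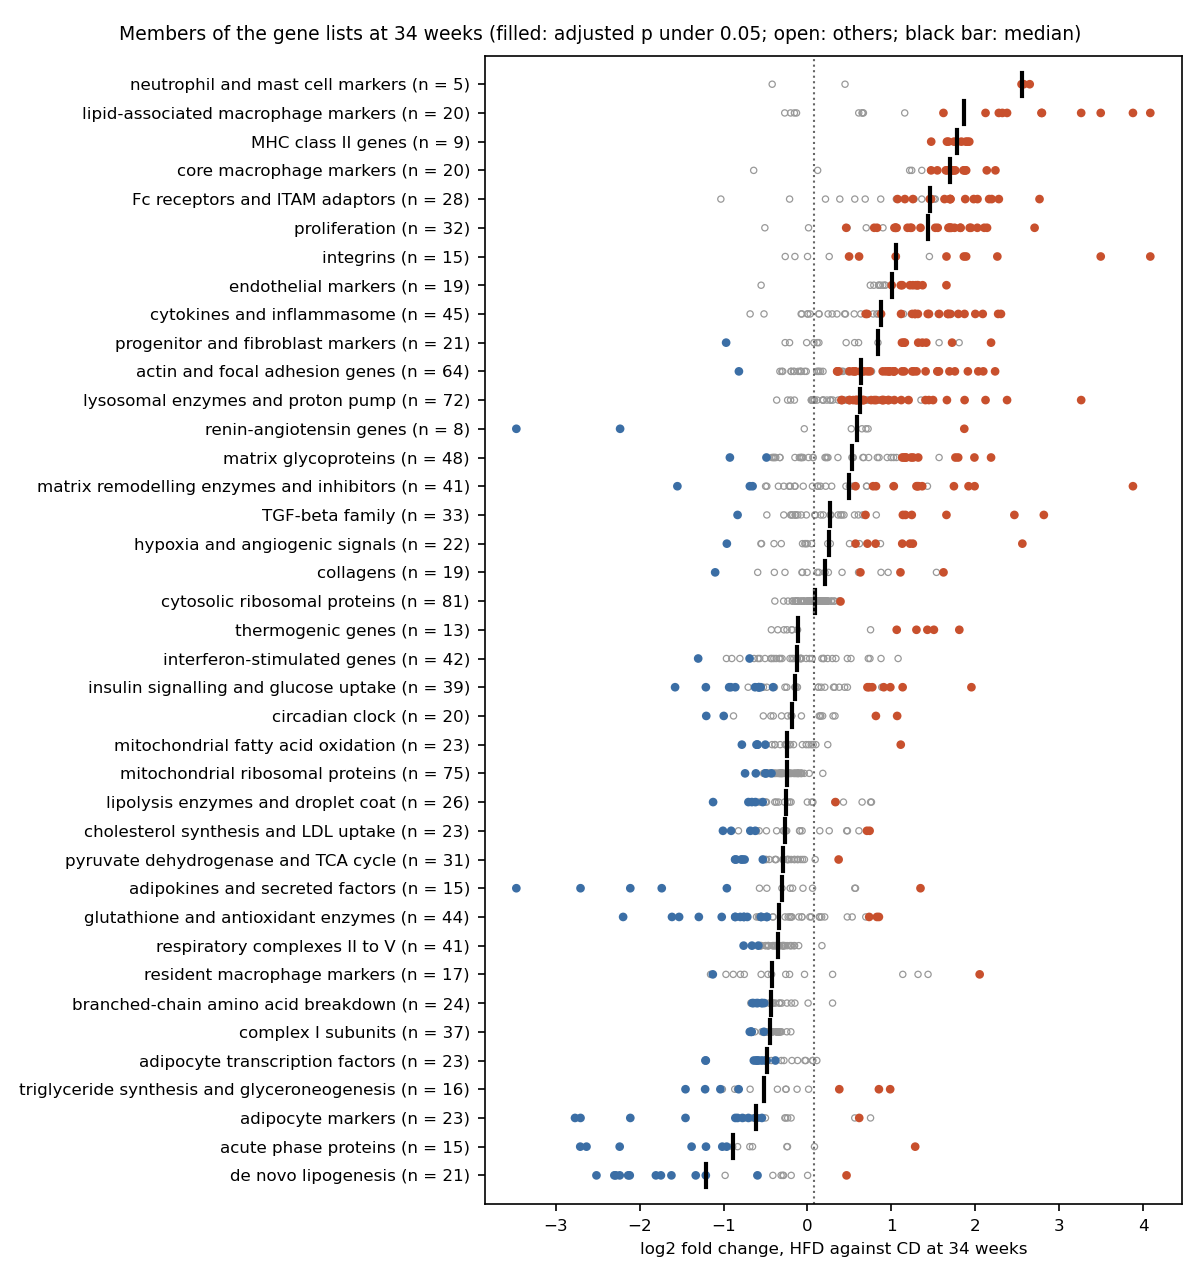
Log2 fold change of each measured member of 39 gene lists (x axis, HFD against CD at 34 weeks), with members past the test filled in red (higher) or blue (lower), others open, a black bar at the median of each list and a dotted line at the median of all genes (0.08). Lipogenesis lies lowest, with a median of -1.21, and the lists of neutrophil and mast cell, lipid-associated macrophage and MHC class II genes lie highest, with medians of 2.55, 1.87 and 1.78.

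Few genes of the respiratory complexes and the mitochondrial ribosome passed the test, and most had a small negative log2 fold change. Of 37 subunits of complex I, which takes electrons from NADH, all had a negative log2 fold change, with a median of -0.45, and 5 passed the test. Of 41 subunits of complexes II to V, 40 were negative (median -0.35) and 3 passed, and of 75 mitochondrial ribosomal proteins 73 were negative (median -0.25) and 5 passed, or 11 with edgeR. The shares of lower genes in the latter lists were near the 7.28% of all genes. Members of these complexes vary together between mice, and the mean of the complex I list was 6.44 to 7.30 in CD mice, against 6.02 to 6.85 in HFD mice, with 2 HFD mice below every CD mouse. Ndufa12 and Ndufab1, both of complex I, fell by 0.67 each (adjusted p = 0.0275 and 0.0312), and Cox8a, of complex IV, fell by 0.66 (adjusted p = 0.0317). With single mice left out the adjusted p reached 0.0744, 0.0837 and 0.0851 for Ndufa12, Ndufab1 and Cox8a. All 3 lost their call without CD mouse 3, CD mouse 4, HFD mouse 2 or HFD mouse 3, Ndufab1 and Cox8a also without CD mouse 6 or HFD mouse 4, and Cox8a without HFD mouse 5. The mitochondrial ribosomal protein Mrpl38 was firmer, at 50.2 to 119 CPM in CD mice, against 35.2 to 47.8 in HFD mice (log2 fold change -0.74, SE 0.154, adjusted p = 0.0101). Cytosolic ribosomal proteins, in contrast, had a median of 0.09, with 1 of 81 called, and their median turned to -0.02 with TMM factors.

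Branched-chain amino acid breakdown, which adipocytes use to feed lipogenesis, had 7 of 24 genes lower and none higher (median -0.44). Ppm1k, the phosphatase that switches on the branched-chain keto acid dehydrogenase, was at 11.5 to 16.8 CPM in CD mice and at 7.15 to 10.5 in HFD mice, without overlap (log2 fold change -0.54, SE 0.108, adjusted p = 0.00904). Of 31 genes of pyruvate dehydrogenase and the TCA cycle, 6 were lower and 1 higher (median -0.29), and the lower genes included Pdk2, a kinase that switches off pyruvate dehydrogenase (log2 fold change -0.85, SE 0.168, adjusted p = 0.00855). Fatty acid oxidation had 5 of 23 genes lower and 1 higher (median -0.24). The higher one was Cpt1a, the gate of long-chain fatty acids into mitochondria, at 50 to 169 CPM in CD mice, against 155 to 275 in HFD mice (log2 fold change 1.11, SE 0.267, adjusted p = 0.0145).

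Of 13 genes tied to heat production, 5 were higher and none lower (with edgeR 3 and none), though their median was -0.12. Prdm16, a regulator of brown and beige fat that vascular cells also express, was at 2.17 to 6.65 CPM in CD mice and at 8.11 to 11.2 in HFD mice, without overlap (log2 fold change 1.06, SE 0.188, adjusted p = 0.00541). Ckb, the brain type creatine kinase, rose by 1.30 (SE 0.288, adjusted p = 0.0115). Ucp1, the uncoupling protein that defines thermogenic fat, was too low to be tested, at 0 to 11.6 CPM in CD mice (median 0.448) and 0.244 to 45.5 in HFD mice (median 2.23). Ppargc1a, a coactivator of mitochondrial genes, was low and did not pass the test, with medians of 4.54 and 3.68 CPM (adjusted p = 0.689).

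Of 19 collagens, 3 were higher and 1 lower, near the shares of all genes (17.2% and 7.28%), and their median of 0.21 turned to -0.15 with edgeR and to -0.05 with weights for each mouse. Col1a1, the main chain of fibrillar collagen, was at 28.6 to 555 CPM in CD mice (median 139) and at 101 to 210 in HFD mice (median 133). All HFD values lay within the CD range, and the log2 fold change of 0.14 (SE 0.538, adjusted p = 0.866) turned to -0.40 with edgeR and to -0.16 and -0.12 without CD mouse 4 or CD mouse 6. Col6a3, a chain of the microfibrillar collagen VI, was at 40.5 to 155 CPM in CD and 115 to 314 in HFD mice (log2 fold change 1.11, SE 0.292, adjusted p = 0.0187, and 0.0508 without HFD mouse 2). Col5a3, a chain of collagen V, fell from a median of 742 to 352 CPM (log2 fold change -1.10, SE 0.202, adjusted p = 0.00616). Col4a5, of basement membranes, rose by 1.62 (SE 0.354, adjusted p = 0.011). Fibronectin (Fn1) and elastin (Eln) overlapped between the diets, with log2 fold changes of 0.85 and 0.21 (adjusted p = 0.201 and 0.602).

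Of 48 matrix glycoproteins 11 were higher and 2 lower (median 0.53), and of 41 remodelling enzymes and their inhibitors 12 were higher and 3 lower (median 0.50). Without CD mouse 5 these became 16 and 3, and 16 and 4, and with edgeR 9 and 4, and 5 and 3. Among all 10461 genes 17.2% were higher and 7.28% lower, and with edgeR 1190 and 1053 genes. Lama2, a laminin chain of basement membranes, rose by 1.99 (SE 0.443, adjusted p = 0.0115), whereas the basement membrane protein Nid2 fell by 0.92 (SE 0.219, adjusted p = 0.014). Timp4, an inhibitor of matrix metalloproteinases made by adipocytes, was at 62.0 to 522 CPM in CD mice (median 390) and at 72.4 to 232 in HFD mice (median 90). The overlap came from CD mouse 5, which held 62.0 CPM while the other CD mice held at least 327. The log2 fold change was -1.55 (SE 0.422, adjusted p = 0.0208) and the adjusted p was 0.000347 without that mouse and 0.0562 at most, the call being lost without HFD mouse 2 or HFD mouse 3. Pcolce, which helps to cleave procollagen, went the other way with the same mouse apart, since CD mouse 5 held 50.1 CPM, above all HFD mice, and the log2 fold change was 1.74 (SE 0.414, adjusted p = 0.0142).

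Of 15 integrins 9 were higher and none lower (median 1.06), and the mean of the list was above every CD mouse in all 6 HFD mice, from 6.17 to 6.98 against 4.12 to 6.05. The list holds Itgax and Itgad, which are leukocyte chains. Itga5, the fibronectin receptor chain, was at 10.3 to 128 CPM in CD mice, against 46.6 to 236 in HFD mice and did not pass the test (log2 fold change 1.45, adjusted p = 0.0533). Of 64 genes of actin and focal adhesion 35 were higher and 1 lower (median 0.64), and with edgeR 24 and 2. Among the higher genes was the actin crosslinker Actn1 (log2 fold change 1.55, SE 0.334, adjusted p = 0.0108).

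The TGF-beta family, which drives matrix production, had 7 of 33 genes higher and 1 lower (median 0.27), near the shares of all genes (17.2% and 7.28%). With edgeR 6 were higher and 1 lower (median 0.08). Fstl1, a secreted glycoprotein that binds BMPs and is made by stromal cells, was at 8.55 to 160 CPM in CD mice (median 39.5) and at 152 to 434 in HFD mice (median 269), a log2 fold change of 2.81 (SE 0.556, adjusted p = 0.00855). Gdf3, a TGF-beta ligand of adipose macrophages, rose by 2.46 (SE 0.52, adjusted p = 0.0103). Acvr1c, the receptor ALK7 of mature adipocytes, fell from a median of 178 to 111 CPM without overlap (log2 fold change -0.83, SE 0.214, adjusted p = 0.0174). Tgfb1 itself was at 25.9 to 146 CPM in CD mice and at 58.8 to 191 in HFD mice (log2 fold change 1.14, adjusted p = 0.0374). With single mice left out its adjusted p was 0.00711 to 0.0895, and the call was lost without CD mouse 3, CD mouse 4, CD mouse 6, CD mouse 8, HFD mouse 2, HFD mouse 3, HFD mouse 4 or HFD mouse 5.

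Core and lipid-associated macrophage markers were higher in part. Of 20 core macrophage markers 14 were higher and none lower (median 1.69), and of 20 markers of lipid-associated macrophages 11 were higher and none lower (median 1.87). Without CD mouse 5 the counts were 18 and 13, and with edgeR they were 7 and 10. Csf1r, the receptor for the growth factor of macrophages, was at 68.2 to 824 CPM in CD mice (median 265) and at 376 to 1340 in HFD mice (median 860). Its log2 fold change was 1.75 (SE 0.479, adjusted p = 0.0213), with an adjusted p of 0.0579 at most, above the threshold without HFD mouse 2, HFD mouse 3 or HFD mouse 4. Ptprc, the leukocyte antigen CD45, rose from a median of 60.0 to 226 CPM (log2 fold change 2.24, SE 0.516, adjusted p = 0.0129). Trem2, a lipid receptor of macrophages, was at 21.5 to 433 CPM in CD mice (median 87.6) and at 212 to 893 in HFD mice (median 483), and the highest CD value was that of CD mouse 5 (log2 fold change 2.28, SE 0.602, adjusted p = 0.0188). The lysosomal collagenase Ctsk, counted with the lipid-associated genes, rose by 3.26 (SE 0.63, adjusted p = 0.00788).

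Of 17 markers of tissue-resident macrophages, 1 was higher and 1 lower, with a median of -0.43. Without CD mouse 5 they were 4 and 1 (median -0.25), with mouse weights 4 and 1 (median -0.09) and with edgeR 0 and 2 (median -0.78), and the lists of macrophage markers were not compared by a test. The higher one with all mice was the folate receptor Folr2, at 16.4 to 411 CPM in CD mice, against 113 to 418 in HFD mice, where 411 belonged to CD mouse 5 and the other CD mice were at or below 78.9 (log2 fold change 2.05, adjusted p = 0.0199, and 0.0521 without HFD mouse 3). The mean of the resident list was highest in CD mouse 5 (7.08), against 4.30 to 6.14 in the other CD mice and 5.01 to 5.74 in the HFD mice.

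Of 13 MHC class II genes listed, which present antigen in macrophages, dendritic and B cells, 9 were tested. All 9 were higher, with log2 fold changes of 1.47 to 1.93 (median 1.78). With edgeR 8 were higher and with mouse weights 6, and none was lower in either. H2-Aa (chromosome 17, 34282744 to 34287823) was at 84.5 to 600 CPM in CD mice (median 310) and at 403 to 1909 in HFD mice (median 1480), with 4 HFD mice above every CD mouse (log2 fold change 1.91, SE 0.48, adjusted p = 0.0165). H2-Eb1 had medians of 185 and 982 CPM (log2 fold change 1.93, SE 0.49, adjusted p = 0.0169), and H2-Ab1 had medians of 166 and 841 (log2 fold change 1.83, SE 0.504, adjusted p = 0.0216, and above 0.05 without HFD mouse 3 or HFD mouse 4, at most 0.0579). Class II genes of this region are similar in sequence and may share reads. The mean of the list in CD mouse 5 was 7.70, above HFD mice 5 and 6 (7.53 and 7.49).

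Promoters of the genes that moved together are shown because class II promoters carry a Y box, the inverted CCAAT element that NF-Y binds, because PU.1 is the main Ets factor of myeloid cells, and because lysosomal genes carry the CLEAR element of TFEB. The sequences are the 150 bases before the RefSeq start on GRCm38.p6, in the direction of transcription, with the motif in capitals. They come from H2-Aa (chr17:34287824-34287973, minus strand, motif from 51 bases before the start), H2-Eb1 (chr17:34305717-34305866, plus strand, motif from 62 bases before the start), Cd300ld (chr11:114989887-114990036, minus strand, PU.1 core from 143 bases before the start) and Atp6v1a (chr16:44139260-44139409, minus strand, CLEAR element from 132 bases before the start).
H2-Aa: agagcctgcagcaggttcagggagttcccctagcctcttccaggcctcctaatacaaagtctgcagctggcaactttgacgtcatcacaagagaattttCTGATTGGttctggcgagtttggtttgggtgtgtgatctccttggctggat
H2-Eb1: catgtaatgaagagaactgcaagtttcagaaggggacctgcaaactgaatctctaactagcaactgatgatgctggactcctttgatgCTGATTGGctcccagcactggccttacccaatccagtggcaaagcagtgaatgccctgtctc
Cd300ld: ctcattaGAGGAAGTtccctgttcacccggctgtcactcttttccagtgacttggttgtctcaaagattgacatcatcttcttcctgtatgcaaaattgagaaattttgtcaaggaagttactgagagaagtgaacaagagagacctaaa
Atp6v1a: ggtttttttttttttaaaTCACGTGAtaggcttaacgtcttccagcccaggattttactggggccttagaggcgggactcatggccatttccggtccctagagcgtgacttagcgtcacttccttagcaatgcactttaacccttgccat

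Motifs were searched on both strands in the window of 250 bases before to 50 after the start, which the RefSeq table gave for 8386 of the 10461 genes. The Y box CTGATTGG was found in 6.32% of all promoters and in 2 of the 6 class II promoters at hand. The PU.1 core GAGGAAGT was found in 3.84% of all promoters, in 6.82% of those of genes higher in HFD mice, in 3.59% of those lower, and in 3 of 15 promoters of core macrophage markers. The CLEAR element TCACGTGA, which contains the E box CACGTG, was found in 2.40% of all promoters and in 8 of 57 lysosomal promoters (14%), and the E box in 12.2% and 31.6%. Among genes higher in HFD mice the CLEAR element was in 1.99%, the E box in 12.2% and the Y box in 7.04%. Among the higher genes without overlap the PU.1 core was in 2.52% of promoters. These shares describe letters in a window and were not tested.

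Of 72 lysosomal enzymes and proton pump subunits 31 were higher and none lower (median 0.62). Without CD mouse 5 the counts were 48 and 1, with TMM factors 26 and 1, and with edgeR 23 and 1. Lipa, the acid lipase that frees fatty acids from engulfed lipid, rose from a median of 254 to 1215 CPM (log2 fold change 2.12, SE 0.471, adjusted p = 0.0115). Arsb, the lysosomal arylsulfatase that degrades dermatan and chondroitin sulfate, was even within each diet, at 45.9 to 72.0 CPM in CD mice, against 87.4 to 112 in HFD mice, without overlap (log2 fold change 0.76, SE 0.115, adjusted p = 0.00273). Atp6v1a, a catalytic subunit of the proton pump named here after its values were seen, rose by 0.96 (adjusted p = 0.0195, at most 0.0538, and not called without HFD mouse 2 or HFD mouse 3).

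Of 28 Fc receptors and adaptors with the ITAM signalling motif, 16 were higher and none lower (median 1.46), and with edgeR 11 and none. Cd300ld, an activating receptor of myeloid cells, rose by 1.98 (SE 0.472, adjusted p = 0.0143) and the C-type lectin Clec12a by 2.76 (SE 0.596, adjusted p = 0.0108). Of 45 cytokine and inflammasome genes 20 were higher and none lower (median 0.88), and with edgeR 10 and none. Casp1, the protease that matures interleukin 1, was at 11.6 to 47.3 CPM in CD mice, against 54.9 to 72.7 in HFD mice, without overlap (log2 fold change 1.43, SE 0.27, adjusted p = 0.00721). Il1rl1, the receptor of interleukin 33, rose by 2.00 (SE 0.398, adjusted p = 0.00871). Classical inflammatory genes of obese fat did not rise evenly. Tnf was at 15.2 to 411 CPM in CD and 125 to 898 in HFD mice and did not pass the test (log2 fold change 1.72, adjusted p = 0.0867). The monocyte chemokine Ccl2 had a lower median in HFD than in CD mice, 122 against 205 CPM (adjusted p = 0.534). Il6 passed by little, with medians of 7.23 and 17.9 CPM (adjusted p = 0.0479), and with single mice left out its adjusted p was 0.00393 to 0.121, under the threshold only without CD mouse 5, HFD mouse 1 or HFD mouse 6.

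Of 42 interferon-stimulated genes, 2 were lower and none higher (median -0.12), against 7.28% and 17.2% of all genes. Irf7, the master factor of interferon production, was at 26.5 to 122 CPM in CD mice, against 13.4 to 21.5 in HFD mice, without overlap (log2 fold change -1.30, SE 0.292, adjusted p = 0.0117). Ifi27 fell by 0.69 (adjusted p = 0.0206, at most 0.0575, and not called without HFD mouse 2 or HFD mouse 3).

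Of 15 acute phase proteins, 7 were lower and 1 higher, with a median of -0.89, and the higher one was Il6, which the list also holds. The copper carrier ceruloplasmin (Cp) was at 137 to 286 CPM in CD mice and at 63.3 to 103 in HFD mice (log2 fold change -1.21, SE 0.184, adjusted p = 0.00273). Orm3, an alpha-1 acid glycoprotein that belongs to a family of near-identical copies, was at 10.7 to 23.2 CPM in the other 7 CD mice and at 1.28 in CD mouse 5, against 0.343 to 2.71 in HFD mice (log2 fold change -2.71, SE 0.467, adjusted p = 0.00482). Lcn2, an iron-trapping lipocalin, ranged from 6.77 to 213 CPM in CD mice, against 6.65 to 30.1 in HFD mice. CD mice 4 and 6 lay within the HFD range, and the adjusted p of 0.0317 was 0.0129 to 0.0784 with single mice left out, above the threshold without CD mouse 1, CD mouse 2, CD mouse 3, CD mouse 8, HFD mouse 2, HFD mouse 3 or HFD mouse 4.

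Of the lists with more than 20 genes, that of proliferation had the largest share of higher genes. Of 32, 27 were higher and none lower, with a median of 1.43, and with edgeR 22 and 1. The mean of the list was 2.35 to 4.70 in CD mice, against 3.62 to 5.06 in HFD mice. The replication helicase subunit Mcm5 had medians of 7.86 and 37.9 CPM (log2 fold change 1.71, SE 0.372, adjusted p = 0.011) and the cyclin Ccnd1 5.6 and 58.6 (log2 fold change 2.70, SE 0.557, adjusted p = 0.00975). The replication clamp Pcna rose by 1.24 (SE 0.274, adjusted p = 0.0112) and the tubulin Tubb5, which dividing cells make in large amounts, by 1.30 (SE 0.21, adjusted p = 0.00343). CD mouse 5 held the highest CD value of Ccnd1 (55.4 CPM) and of Pcna (153 CPM), both within the HFD range. Cdkn1a, the cell cycle inhibitor p21, did not pass the test, with medians of 160 and 293 CPM (adjusted p = 0.0791).

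Of 44 antioxidant enzymes 15 were lower and 3 higher (median -0.34). Beside Gpx3, the glutathione transferase Gstm6, one of a family of close copies, fell by 1.61 (SE 0.327, adjusted p = 0.00915). Srxn1, the NRF2 target that repairs peroxiredoxins, rose by 0.85 (SE 0.207, adjusted p = 0.0148). Of 23 genes of cholesterol synthesis and LDL uptake 4 were lower and 2 higher (median -0.26), against 7.28% and 17.2% of all genes. Srebf2, the factor that turns on this pathway, rose from 33.1 to 56.4 CPM in CD mice to 59.6 to 97.8 in HFD mice, without overlap (log2 fold change 0.74, SE 0.135, adjusted p = 0.00598). Pmvk, an enzyme of the mevalonate steps, fell by 1.01 (adjusted p = 0.0251, at most 0.0682, and not called without HFD mouse 2, HFD mouse 3 or HFD mouse 4).

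Of 20 clock genes 2 were higher and 2 lower, against 17.2% and 7.28% of all genes. The repressor Nr1d1 (REV-ERB alpha) fell from a median of 403 to 157 CPM (log2 fold change -1.21, SE 0.3, adjusted p = 0.0159), and the CLOCK paralog Npas2, whose targets include Nr1d1, rose by 0.81 (adjusted p = 0.0254, at most 0.0710, and not called without HFD mouse 2, HFD mouse 3 or HFD mouse 4). Of 22 hypoxia and angiogenic signals 7 were higher and 1 lower. The lower gene was Vegfa, the main growth factor of blood vessels, at 255 to 458 CPM in CD mice (median 360) and 154 to 218 in HFD mice (median 180), without overlap (log2 fold change -0.96, SE 0.135, adjusted p = 0.00252). Angpt2, which loosens vessels, rose from a median of 1.23 to 17.4 CPM (log2 fold change 2.56, SE 0.387, adjusted p = 0.00273). Among 8 genes of the renin-angiotensin system, Agt and Enpep fell and the aminopeptidase Anpep, also found on macrophages, had medians of 140 and 488 CPM. The adjusted p of Anpep, 0.0393, was 0.0138 to 0.0906 with single mice left out, above the threshold without CD mouse 3, CD mouse 4, CD mouse 6, CD mouse 8, HFD mouse 2, HFD mouse 3, HFD mouse 4 or HFD mouse 5.

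Markers of some other cell types were higher in HFD mice as well, and their part in the differences above was not tested. The summed CPM of the 20 core macrophage markers was 1453 to 16615 in CD mice (median 5211) and 7503 to 22715 in HFD mice (median 16124), and none of these markers was at 0 in all mice. Of 19 endothelial markers 10 were higher and none lower (median 1.00), with summed levels of 124 to 340 CPM in CD and 229 to 951 in HFD mice, and the endothelial coreceptor Eng rose from a median of 14.7 to 52.9 CPM (adjusted p = 0.0103). Of 21 progenitor and fibroblast markers 8 were higher and 1 lower (median 0.84), and with edgeR 4 and 1. Their summed level had a median of 12022 CPM in CD mice and of 11097 in HFD mice. Dpt, the matrix protein dermatopontin of universal fibroblasts, was at 185 to 383 CPM in CD mice, against 529 to 1307 in HFD mice, without overlap (log2 fold change 1.41, SE 0.222, adjusted p = 0.0032), and the proteoglycan Dcn rose by 1.15 (SE 0.278, adjusted p = 0.0148). Of 9 mural cell markers 2 were higher and none lower (median 0.11), of 4 mesothelial markers none was called (median -0.34), and of 3 erythroid and platelet markers none was called (median 1.32). Many lymphocyte markers were low. Of 20 T and NK cell markers 14, among them Cd3d, Cd3e and Cd3g, stayed under 1 CPM in all 14 mice. So did 5 of 10 B and plasma cell markers. The 1 T and NK cell marker high enough to be tested, Il7r, was higher (log2 fold change 2.58). It was at 2.49 to 40.0 CPM in CD mice and at 37.4 to 161 in HFD mice, and which cells expressed it was not tested. Of 3 B and plasma cell markers tested 1 was higher and none lower (median 1.40). The summed B and plasma cell markers had medians of 479 CPM in CD and 559 in HFD mice. Ly6g of neutrophils was at 0 in every mouse. None of 22 epididymis and testis markers was high enough to be tested, with a summed level of 0.162 to 15 CPM.

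The mast cell proteases Tpsb2, Mcpt4 and Cma1 split the CD mice. Cma1, mast cell chymase, was at 26.1 CPM in CD mouse 5 and at 0.0804 to 1.44 in the other 7 CD mice, and at 4.36 to 32.1 in HFD mice. Mcpt4 was at 22.4 CPM in CD mouse 5, at 0.178 to 1.62 in the other CD mice and at 4.6 to 28.8 in HFD mice. Tpsb2, a tryptase, was at 19.3, 0.241 to 1.22 and 4.32 to 25.9 CPM in the same order. Apart from CD mouse 5, every CD mouse was below every HFD mouse for all 3 genes. With all mice the log2 fold changes were 2.55 to 2.65 (adjusted p = 0.0131, 0.0138 and 0.015 for Tpsb2, Mcpt4 and Cma1), and none of the 3 passed with edgeR or DESeq2 on the whole reads. CD mouse 5 thus lay within the HFD range in the mean of the core macrophage, proliferation and lipogenic lists and in the 3 proteases, while its Agt (90.9 CPM) and its Itgax (80.7 CPM) lay outside the HFD ranges.

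Since macrophage markers moved with diet, the diet difference was fitted again with the mean of the 20 core macrophage markers of each mouse as a covariate. With it 26 genes differed between the diets (0.249%), 15 higher (0.143%) and 11 lower (0.105%), and 23 of these were among the 2559 calls made without it. The covariate is itself associated with diet, so this fit compares mice at equal marker level and removes differences shared with it, whatever their source. Of the 102 called genes whose values were followed through all settings here, 87 lost their call. Among the lists described above, the adipokines and secreted factors kept 2 lower genes and no other list kept more than 1 call in either direction. The 10 largest rises and the 10 largest falls kept their sign, each with a smaller log2 fold change.

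The genes lower with the covariate included Agt (log2 fold change -2.59, SE 0.281, adjusted p = 0.00113), Sbsn (-2.13), Adrb3 (-1.89, SE 0.294, adjusted p = 0.0175), Prtn3, Slc43a1 (-1.60), the complement component C2, Pyroxd2, Esr1, Pmaip1 and Vegfa (-0.94). The genes higher with it were Nes (2.44), Itgax (2.34), Vat1l, Serpinb9b (1.92), Uchl1 (1.74), Rnf128, Dpt (1.52), Plxdc1, Akr1b8, Lair1, Rasl12, Arsb (1.01, SE 0.111, adjusted p = 0.00113), Mtg2, Milr1 and Exoc3. Mtg2, Rasl12 and Pmaip1 were called only with the covariate, and Pmaip1 had a log2 fold change of 0.48 (adjusted p = 0.449) without it, opposite in sign to -0.99 with it. Of these, Esr1 and the others outside the lists and the largest changes are named after their values were seen. Esr1, the estrogen receptor alpha, was at 18.8 to 58.9 CPM in CD mice, against 7.28 to 13 in HFD mice (log2 fold change -1.64, SE 0.224, adjusted p = 0.00252), and -1.06 with the covariate. C2 had medians of 70.2 and 16.1 CPM.

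**Figure D4:**
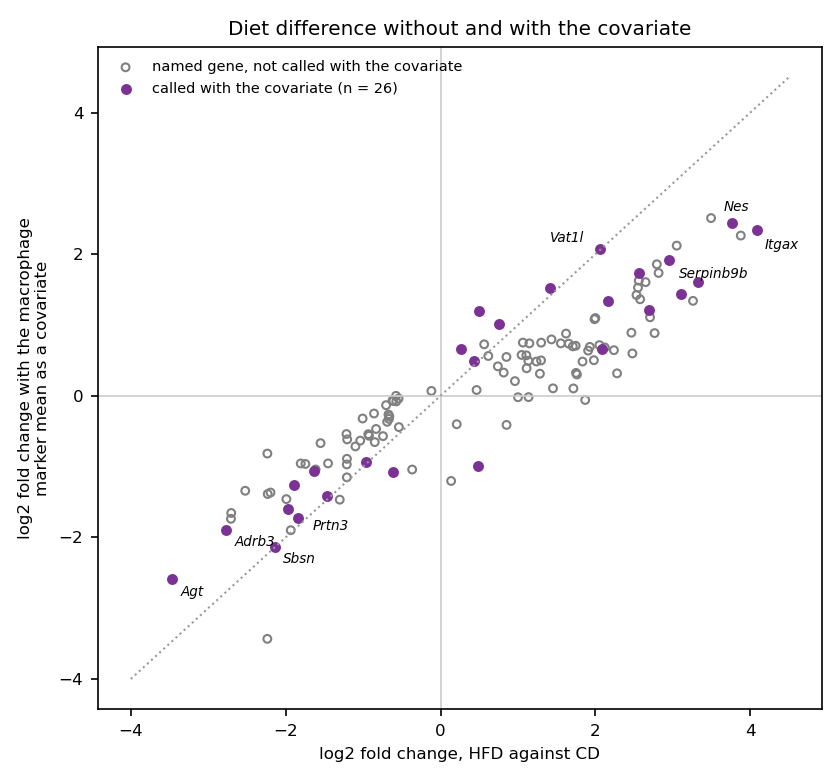
Log2 fold change of HFD against CD (x axis) and the same with the mean of the core macrophage markers as a covariate (y axis), for the genes named here (open) and the 26 genes called with the covariate (filled), with the dotted line where both are equal. Most points lie between that line and 0 on the y axis, and Agt (-2.59) and Nes (2.44) stay far from 0.

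The diet difference at 34 weeks was set against those at 8 and 20 weeks, with 6 mice per diet at each, by the test of the difference itself in a fit of all 38 mice. The estimates at the 3 times come from different mice. Compared with 20 weeks, 1072 genes (10.2%) had a different diet effect, which had the opposite sign in 576, the same sign but a smaller size at 34 weeks in 471 and a larger size in 25. Compared with 8 weeks there were 2987 genes (28.6%), of which 2310 had the opposite sign, 442 were smaller and 235 larger at 34 weeks. These signs and sizes are those of the estimates alone, whether or not the diet difference at either time passed the test. Of the 2559 genes called at 34 weeks, 206 differed from 20 weeks and 780 from 8 weeks. Most genes with a different diet effect thus had no call at 34 weeks, and an opposite sign need not be a reversed diet effect.

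Collagen genes were among those whose log2 fold change was lower at 34 weeks than at the earlier times. The median log2 fold change of the 19 collagens was 1.26 at 8 weeks, 1.95 at 20 weeks and 0.21 at 34 weeks, and 9 of them differed from 20 weeks. For Col1a1 the log2 fold changes were 2.55, 3.66 and 0.14 (34 against 20 weeks -3.52, adjusted p = 0.00378). For Col5a3 they were 1.62, 1.11 and -1.10 (-2.21, adjusted p = 0.00109), with a turn in sign. Beside the collagens, the basement membrane protein Nid2 had 0.99, 0.67 and -0.92 (-1.59, adjusted p = 0.00935). Lep, with 2.18 and 2.90 at the earlier times and 0.56 at 34 weeks, differed from 20 weeks (-2.33, adjusted p = 0.0302), as did Trem2 (5.07 at 20 weeks and 2.28 at 34, adjusted p = 0.0277) and Anpep (4.72 and 1.87, adjusted p = 0.0249). The core macrophage list had medians of 1.64, 2.63 and 1.69, and none of its 20 genes differed from 20 weeks. The list of lipid-associated macrophage markers had medians of 1.71, 3.00 and 1.87, and 7 of its 20 genes differed from 20 weeks.

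The median of the lipogenic genes was 0.33, -0.63 and -1.21 at 8, 20 and 34 weeks, with 13 of 21 genes different from 8 weeks and 6 from 20 weeks. Scd1 had log2 fold changes of 0.46, -0.42 and -1.75 (34 against 20 weeks -1.33, adjusted p = 0.0205). Enpep went from -0.18 to -1.80 and -2.23 (34 against 8 weeks -2.05, adjusted p = 0.000134) and Adrb3 from -0.67 to -1.68 and -2.77 (34 against 8 weeks -2.10, adjusted p = 0.000556, and against 20 weeks -1.09, adjusted p = 0.0947). The median of complex I went from 0.03 to -0.36 and -0.45, with 19 of 37 genes different from 8 weeks and none from 20 weeks. Arsb, at -0.05, 0.26 and 0.76, and Srxn1, at -1.39, -0.61 and 0.85, differed from both earlier times, with an adjusted p against 20 weeks of 0.0206 and 0.00875. The log2 fold changes of the mast cell proteases were 0.19 to 0.41 at 8 weeks and 2.48 to 2.72 at 20 weeks, and all 3 differed between 34 and 8 weeks, with an adjusted p of 0.0063 for Cma1.

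**Figure D5:**
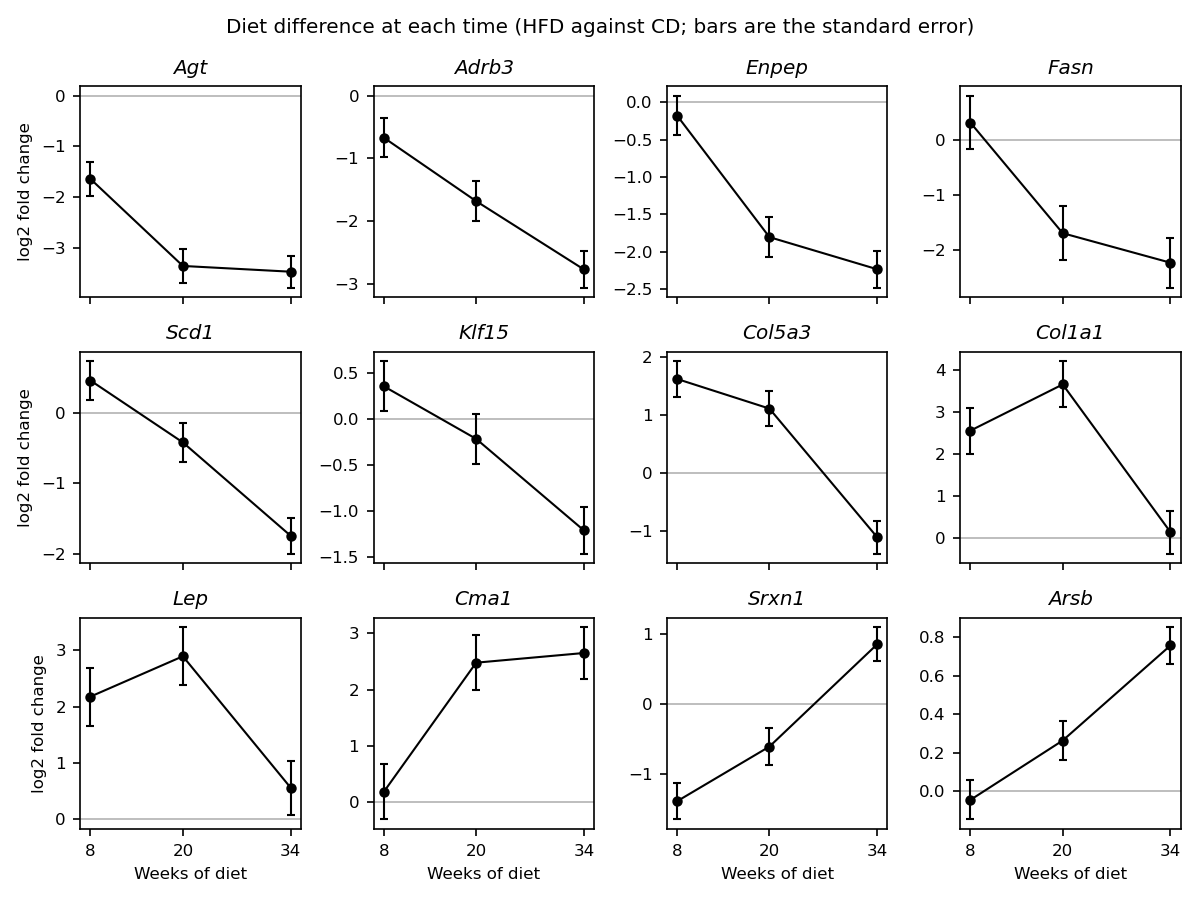
Log2 fold change of HFD against CD at 8, 20 and 34 weeks (x axis, weeks of diet) for 12 genes, with points at the estimates of the fit of all 38 mice and bars of 1 standard error, each panel on its own y scale. Col1a1 and Lep return towards 0 at 34 weeks (0.14 and 0.56), whereas Adrb3 falls to -2.77 and Scd1 to -1.75.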

How the data were processed

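Reads of the adipocyte fraction (stranded mRNA libraries, NextSeq) were aligned by the authors with STAR (2.5 and 2.5.2b in the processing notes) to mm10 and counted with featureCounts (Subread 1.5.1) on GENCODE vM2, and the deposited values are CPM with the 3 replicates of each mouse merged. The methods name TMM factors, but each deposited column sums to 1000000, so none is visible in the CPM. The strand setting of the counting is not given in the sources used here. All values were within 0.1 read of a whole multiple of 1 read, and the reads so recovered were used with edgeR 4.0.16 and DESeq2 1.42.0 as alternatives.

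Values were taken as log2(CPM + 1), and genes with a mean above 2 over the 14 mice (10461) were tested with limma 3.58.1 (R 4.3.3) with the mean-variance trend and 12 residual degrees of freedom, two-sided, with Benjamini-Hochberg adjustment over all genes tested and a threshold of 0.05. Fold changes are on the log2(CPM + 1) scale, which understates those of low genes. Differences between times were tested as interaction terms over 38 mice in 6 groups, with the same adjustment. The statistics were tested on simulated data. Alternatives were other scalings, a pseudocount of 0.1, other filters, edgeR, DESeq2, all 38 mice, mouse weights, the macrophage covariate, a mouse number block and each mouse left out.

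Genes were named by rule: the 10 largest rises and falls without overlap of the diets, with predicted genes passed over, a panel of 30 genes (1 of them, Adgre1, was not analysed here), and in each list up to 3 called members with the smallest p in the direction with more calls and 1 in the other. The members, lists and rules were chosen with earlier results of these data known. Lists are described by counts and medians with no test. No pair of mice within a diet was as close as repeats of 1 library would be (chi-square per degree of freedom of at least 15.4 over 43 pairs). Coordinates and promoters are from RefSeq on GRCm38.p6. Some results are not reported here.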

Additional observations from a re-analysis of the deposited data

Results flagged for a closer look

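In groups of 6 or 8 mice, single values that stood apart from the rest by Dixon's criterion were sought in 304 groups, and 21 were found, where chance flags about 1 in 20 groups. Of these, 16 belonged to CD mouse 5. On the log2(CPM + 1) scale its matrix genes stood at 3.18 (Eln), 3.73 (Col4a5), 6.18 (Nid2), 5.98 (Timp4), 5.68 (Pcolce) and 8.13 (Dcn), with Nid2 and Timp4 below and the others above the other CD mice. Its mast cell genes stood at 4.35 (Tpsb2), 4.55 (Mcpt4) and 4.76 (Cma1), and the mean of the neutrophil and mast cell markers at 4.34. It was also high in Il1rl1 (3.18), Ccnd1 (5.82) and Pcna (7.27), and low in Orm3 (1.19), Gstm6 (1.76) and the mean of cholesterol synthesis (4.71). Of the other mice, CD mouse 6 stood high in Pck1 (11.9) and low in Ccl2 (4.83), CD mouse 3 high in Mrpl38 (6.91), HFD mouse 6 high in Scd1 (14.97), and HFD mouse 4 low in the mean of the collagens (6.44).

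The diet effect of 14 of the genes named differed between 34 and 20 weeks by the interaction test. The difference of log2 fold changes (34 minus 20 weeks) was below 0 in Col1a1 (-3.52), Anpep (-2.85), Trem2 (-2.79), Lep (-2.33), Col5a3 (-2.21), Nid2 (-1.59), Timp4 (-1.46), Scd1 (-1.33), Gstm6 (-1.28), Pmvk (-1.07) and Elovl1 (-0.72), and above 0 in Il6 (2.14), Srxn1 (1.46) and Arsb (0.50).

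Between 34 and 8 weeks 37 of the genes named differed. Among secreted and receptor genes the difference (34 minus 8 weeks) was -1.83 in Agt, -2.10 in Adrb3, -2.05 in Enpep, -0.90 in Sbsn, -1.55 in Pth1r, -1.75 in Clu, -2.96 in Orm3 and -1.28 in Esr1. Among adipocyte and lipid genes it was -0.55 in Pparg, -0.63 in Cebpa, -0.75 in Slc2a4, -2.57 in Fasn, -2.20 in Scd1, -1.57 in Klf15, -1.73 in Pmvk and 0.52 in Srebf2. Mitochondrial genes differed by -0.71 (Ndufa12), -0.97 (Ndufab1) and -0.58 (Cox8a). Matrix genes differed by -2.42 (Col1a1), -1.35 (Eln), -2.72 (Col5a3), -1.91 (Nid2), -1.47 (Timp4) and 1.38 (Dcn). The remaining differences were 1.84 in Nes, 1.84 in Uchl1, 0.81 in Arsb, -0.99 in Irf7, -1.32 in Ifi27, 0.96 in Pcna, 0.81 in Tubb5, -2.34 in Gstm6, 2.24 in Srxn1, 2.28 in Tpsb2, 2.17 in Mcpt4 and 2.46 in Cma1.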

How the results depend on the processing

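All 38 mice in 1 fit gave 4584 calls (2958 higher, 1626 lower), mouse weights 3922 (1354 lower), the macrophage covariate 26 (15 and 11) and a 2-fold limit 933 (812 and 121). edgeR called 1190 higher genes and DESeq2 1496 lower ones. With single mice left out the calls ranged from 1056 to 3617, the higher from 739 to 2529 and the lower from 317 to 1088, and the genes without overlap from 159 to 708 higher and from 104 to 237 lower. Without HFD mouse 6 the genes without overlap were 328 and 187, and without HFD mouse 1 221 and 154. The share of variance of the first component was 42.6% with genes scaled to unit variance and 59.6% to 65.7% with single mice left out. The exact p of its diet difference stayed under 0.05 in each of these fits. The genes with a different diet effect at 34 weeks stayed within 1.5 times of the counts given under every alternative run, between 845 and 1490 against 20 weeks and between 2379 and 3650 against 8 weeks with single mice left out.

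Of 113 genes named, 102 were called, and 81 of these kept their call without any single mouse. The direction turned in 12 of 2801 values. With the covariate Ppargc1a became 0.068, Tgfb1 -0.020, Col1a1 -1.20, Fn1 -0.41, Eln -0.40, Cdkn1a -0.021 and Anpep -0.060. Col1a1 was also -0.40 with edgeR and DESeq2, -0.052 with mouse weights, and between -0.16 (without CD mouse 4) and 0.44 (without CD mouse 5) with single mice left out, -0.12 without CD mouse 6. Apart from the covariate and weights, whose construction changes what is compared, the cause was not tested. 8 calls were lost with edgeR, 5 with DESeq2 and 1 (Il6) with a rescaling.

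No pairing of the diets by mouse number was seen in the deviations over all genes, a check that cannot exclude effects shared by few genes. Same-numbered mice deviated together in 1 of 6 pairs (correlations from -0.52 to 0.53) and none of the 6 HFD mice correlated best with its own number. With the number as a block, mice 1 to 6 of each diet gave 941 calls (684 higher, 257 lower), compared with 1844 for the same 12 mice without it, a fit chosen after seeing the data, as were the list counts without CD mouse 5 and under rescaling. Depth, at 0.0804 to 0.108 CPM for 1 read, limits genes of a few CPM, such as the mast cell proteases in most CD mice.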
